A study of Mus musculus with 4 samples.

Results

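The replication-cluster histone genes are the mouse genes whose symbols begin with Hist1h, Hist2h, Hist3h or Hist4h, and they encode the linker histone H1 and the core histones H2A, H2B, H3 and H4. All rows with such a symbol were taken, which gave 68 of the 23240 rows of the deposited gene table. Of these, 54 rows belonged to the Hist1 cluster on chromosome 13, 10 to the Hist2 cluster on chromosome 3, 3 to the Hist3 cluster on chromosome 11 and 1 to Hist4 on chromosome 6. By class they comprised 6 H1, 18 H2A, 19 H2B, 12 H3 and 13 H4 rows.

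The study sequenced RNA from cortical cells of mouse embryos at embryonic day 15.5 and set neurons against neural progenitor cells (NPCs), with 2 libraries in each group. The embryos came from heterozygous Nestin-GFP mice crossed with homozygous DCX-mRFP mice, and embryos positive for both fluorescent proteins were used, so both groups carried both reporters. Nestin-GFP is driven by a gene active in progenitors and DCX-mRFP by one active in young neurons. Neurons were sorted as cells with both colours and NPCs as cells with green fluorescence alone. TRIzol was used to extract total RNA and a TruSeq kit to prepare it for sequencing; whether polyadenylated RNA was selected is not given in the sources used here. Library totals lay between 52611828 and 55615142 estimated reads. The labels do not say that the 2 libraries of a group came from separate litters, and the p-values therefore rest on library-to-library variation that may be technical in origin. In bulk samples, fewer cells of a type and less RNA per cell cannot be told apart.

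Replication-dependent histone genes supply the histones that package newly copied DNA, and their mRNAs accumulate mainly in S phase. These genes lack introns, and their mRNAs normally end in a conserved stem-loop, in place of a poly(A) tail, which is bound by the stem-loop binding protein Slbp and cut with the help of the U7 small nuclear ribonucleoprotein. Some members can also make longer, polyadenylated transcripts. In the developing cortex, NPCs divide in the ventricular zones, whereas the neurons they produce no longer copy their DNA and rely more on replacement variants encoded elsewhere in the genome.

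The stem-loop sets these transcripts apart from most other mRNAs, so the forms found are shown first. A search for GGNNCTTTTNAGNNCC, 16 bases long, found these letters in the GENCODE transcripts (release vM21, GRCm38) of 44 of the 68 members and in 45 of 55273 other genes, or 0.0814% of them. Each sequence below is written 5′ to 3′ on the transcript's strand, and the capitals mark the 16 bases of the stem and loop.
Hist3h2a: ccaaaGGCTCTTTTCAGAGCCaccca
Hist3h2ba: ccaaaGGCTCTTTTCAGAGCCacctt
Hist1h2ao: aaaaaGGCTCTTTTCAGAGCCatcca
Hist1h1c: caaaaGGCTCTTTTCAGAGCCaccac
Hist1h3c: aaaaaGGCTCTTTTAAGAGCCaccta
Hist4h4: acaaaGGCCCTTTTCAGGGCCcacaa
Hist1h4i: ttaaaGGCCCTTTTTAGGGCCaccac
Hist1h4b: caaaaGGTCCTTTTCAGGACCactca
The form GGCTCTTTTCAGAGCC was the commonest, in 26 members, and it stood both in Hist3 genes that were higher in neurons and in Hist1 genes that were lower. A form whose loop differed, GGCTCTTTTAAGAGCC, was found in 6 members, among them Hist1h3c. The forms of Hist4h4, Hist1h4i and Hist1h4b shown above were found in H4 genes. The other 24 members had no such letters in their annotated transcripts. For 11 of the 68 members the longest annotated transcript was no longer than the coding sequence.

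Upstream sequence is shown for a pair of Hist3 genes with higher levels in neurons and for the Hist1 gene with the most negative change. Each run is the 250 bases before the annotated start, from RefSeq's GRCm38.p6 annotation, 5′ to 3′ on the gene's strand. Capitals mark the octamer ATTTGCAT, the CCAAT box and the letters TATAAA on either strand.
Hist3h2a (chr11:58954435-58954684, plus strand, GRCm38.p6): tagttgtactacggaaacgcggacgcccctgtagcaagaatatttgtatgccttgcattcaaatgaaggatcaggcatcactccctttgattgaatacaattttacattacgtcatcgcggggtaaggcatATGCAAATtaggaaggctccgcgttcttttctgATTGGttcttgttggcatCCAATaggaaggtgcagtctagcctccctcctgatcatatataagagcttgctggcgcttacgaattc
Hist3h2ba (chr11:58948661-58948910, plus strand, GRCm38.p6): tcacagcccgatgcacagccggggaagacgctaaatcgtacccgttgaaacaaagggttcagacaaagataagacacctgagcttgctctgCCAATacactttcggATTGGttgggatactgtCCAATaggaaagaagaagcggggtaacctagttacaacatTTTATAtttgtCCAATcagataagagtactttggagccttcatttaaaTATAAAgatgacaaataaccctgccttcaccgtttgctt
Hist1h3c (chr13:23745522-23745771, minus strand, GRCm38.p6): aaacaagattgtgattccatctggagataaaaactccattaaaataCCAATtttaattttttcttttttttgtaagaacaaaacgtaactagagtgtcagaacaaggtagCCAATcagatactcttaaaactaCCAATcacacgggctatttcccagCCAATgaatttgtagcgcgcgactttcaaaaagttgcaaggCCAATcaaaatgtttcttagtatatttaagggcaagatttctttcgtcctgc
Over windows that run from 250 bases before to 50 bases after the start, promoter sequence was available for 62 members. CCAAT stood in 53 of them, or 85.5%, against 37.3% of 32788 other promoters. TATAAA stood in 56.5% of the members' windows and in 13.5% of the others. The octamer ATTTGCAT, known as an element of H2B promoters, stood in 13 members, or 21.0%, against 1.70% of other promoters. These were 7 of 18 H2A and 6 of 16 H2B windows, with none among the H1, H3 and H4 windows. The letters TTTNNCGC, one form of an E2F site, stood in 30.6% of the members' windows and 5.12% of the others. Both strands were searched, and no base was shared between different motifs. The windows of neighbouring H2A and H2B genes on opposite strands overlap, so some matches were counted once for each gene. Hist1h2ae and Hist1h2bg, for example, share their octamer. The members' shares are therefore not shares of separate sites. These matches are letters and not measured binding.

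Most members had lower levels in neurons. Levels are given as CPM, a gene's counts relative to the total of its library after scaling by edgeR's TMM factors, and log2 changes are neurons over NPCs with their standard error (SE). Of the 68 members, 62 had enough reads to test, 54 were lower in neurons at an adjusted p under 0.05 and 5 were higher (edgeR quasi-likelihood test, Benjamini-Hochberg over 15292 genes). Over all genes tested, 36.9% were lower, 35.8% were higher and 72.6% differed in either direction. At least 2-fold lower were 48 members, against 18.5% of all genes. The members' median log2 change was -1.46, and that of all genes tested was -0.02. In 53 members both neuron libraries lay below both NPC libraries, where 44.0% of all genes did, and in 6 members they lay above, where 42.0% of all genes did. Members took 0.0988% and 0.0944% of all counts in the neuron libraries, against 0.324% and 0.283% in the NPC libraries.

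All 51 tested Hist1 genes were lower in neurons, with log2 changes between -3.15 and -0.24 and a median of -1.82, and in none did the groups overlap. Low-level genes such as Hist1h3c, Hist1h4m and Hist1h1a had enough reads for testing only in NPCs, so the read filter itself favoured a lower call. All 3 Hist3 genes were higher. Of the 7 tested Hist2 genes, 2 were higher, both of them H3 genes, 3 were lower, all of them H2A or H2B genes, and 2 did not pass, and the single Hist4 gene did not pass the test. Whether the clusters differ from each other was not tested.

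**Figure D1:**
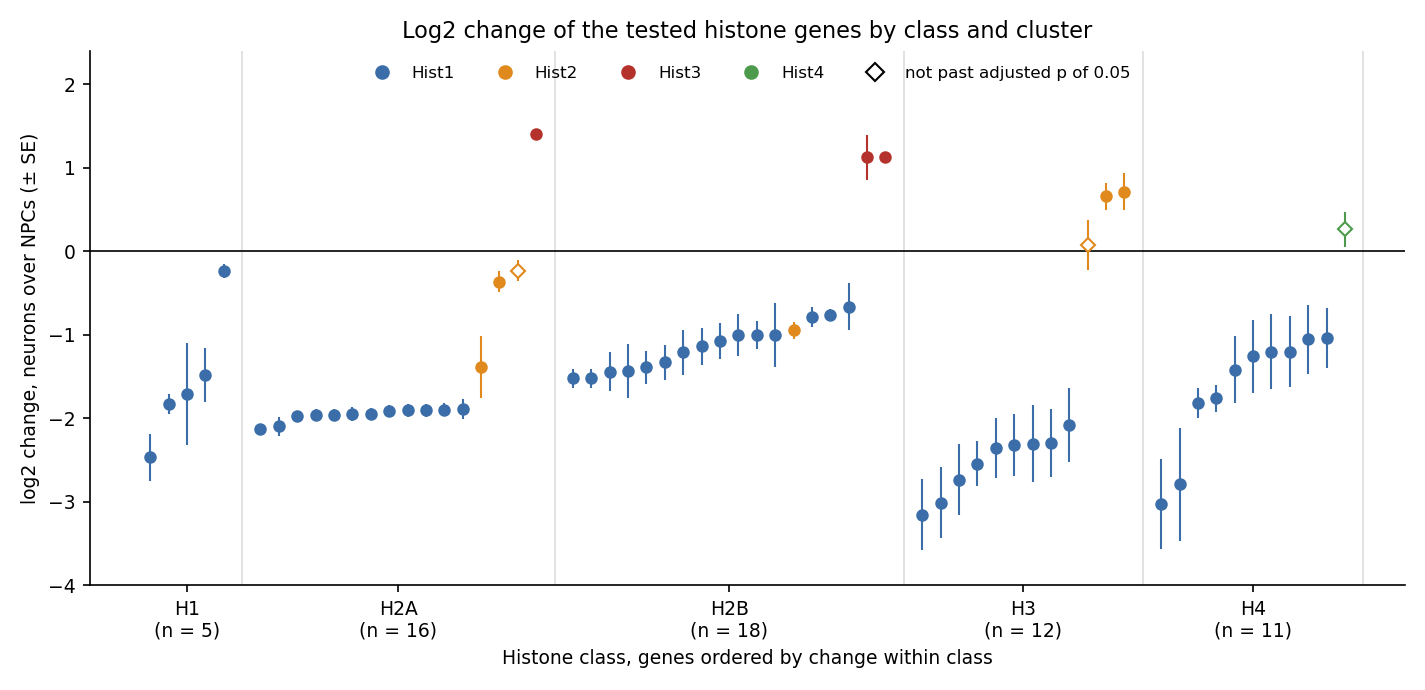
Log2 change of each of the 62 tested genes, neurons over NPCs, by histone class (horizontal axis) with the SE as a vertical bar, coloured by cluster. Hist1 genes all lie below 0, the 3 Hist3 genes lie above 1, and open diamonds mark the 3 genes that did not pass an adjusted p of 0.05.

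Linker histones of the H1 class bind the DNA between nucleosomes. All 5 tested H1 genes were lower in neurons, by very different amounts. Hist1h1b had 0.378 and 0.446 CPM in neurons, against 2.46 and 2.06 CPM in NPCs, a log2 change of -2.46 ± 0.28 (SE, adjusted p = 6.47e-07, edgeR). Hist1h1e had 5.33 and 6.92 CPM in neurons, against 22.9 and 20.7 CPM in NPCs, with a log2 change of -1.83 ± 0.12. For both genes the neuron libraries lay well below the NPC libraries. The transcripts of Hist1h1c and Hist1h1e are annotated with 840 and 1153 bases beyond their stem-loops. Hist1h1c had 13.9 and 14.9 CPM in neurons, against 17.6 and 16.5 CPM in NPCs. Its log2 change of -0.24 ± 0.09 was the smallest in size of the Hist1 genes (adjusted p = 0.024, edgeR), and its groups stood next to each other without overlapping. The call on Hist1h1c was lost with DESeq2, without NPC replicate 1 and without neuron replicate 1, with adjusted p-values of 0.0794, 0.189 and 0.0918. Without NPC replicate 1 the low-level gene Hist1h1a, with 0.123 and 0.0581 CPM in neurons, against 0.365 and 0.235 CPM in NPCs, lost its call too, which left 3 of the 5 H1 genes called. Per kilobase of coding sequence, Hist1h1c had a mean of 22.7 CPM in neurons and Hist1h1e 9.33, whereas in NPCs Hist1h1c had 26.7 and Hist1h1e 33.1. Thus, per kilobase of coding sequence, Hist1h1c was the higher of the pair in neurons and the lower of the pair in NPCs. The longest annotated transcripts of Hist1h1c and Hist1h1e have 1560 and 1930 bases, a difference that this scale leaves out. The H1 gene known from testis, Hist1h1t, had no counts in either neuron library or in NPC replicate 2 and was not tested.

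H2A and H2B pair as dimers on the outside of the nucleosome core. The Hist1 H2A genes moved as a narrow band: all 12 tested were lower in neurons, with log2 changes between -2.13 and -1.89 and a median of -1.95. The highest levels of all members were in this group. Hist1h2ao had 152 and 137 CPM in neurons, against 602 and 519 CPM in NPCs, a log2 change of -1.96 ± 0.07 (SE, adjusted p = 3.16e-13, edgeR). Hist1h2ap had 150 and 135 CPM in neurons, against 593 and 512 CPM in NPCs, and the same log2 change. Hist1h2ag had 64.4 and 58.2 CPM in neurons, against 253 and 219 CPM in NPCs, with a log2 change of -1.94 ± 0.07. In all 3 genes both neuron libraries lay far below both NPC libraries, and NPC replicate 1 was the higher of the NPC pair. These rows cannot be read as independent loci, since their sequences are near-identical and reads may be assigned to several of them.

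Over the whole annotated transcript, some Hist1 H2A rows had mostly sequence of their own. Transcripts were cut into all windows as long as a sequenced read. Of these windows, Hist1h2ac had 92.4% that occurred in no other gene and Hist1h2ak had 89.8%, against 7.37% for Hist1h2ao and 7.85% for Hist1h2ap. In Hist1h2ac, 2010 of the 2482 annotated bases lie beyond the stem-loop, so its 92.4% need not hold for the part up to the stem-loop. Hist1h2ac had 45.4 and 42.3 CPM in neurons, against 182 and 202 CPM in NPCs, with a log2 change of -2.13 ± 0.06. Hist1h2ak had 6.96 and 6.47 CPM in neurons, against 28.4 and 21.3 CPM in NPCs, with a log2 change of -1.89 ± 0.12. Both pairs of libraries were apart, and the changes of Hist1h2ac and Hist1h2ak lay at either end of the band. Hist1h2ae, with 69.4% of its windows in no other gene, had a log2 change of -1.97, inside the band. Hist1h2ac and Hist1h2ak were picked for their distinct sequence after their values were seen.

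In Hist2, the H2A pair Hist2h2aa1 and Hist2h2aa2 showed little difference. Hist2h2aa1 had 29.2 and 25.7 CPM in neurons, against 38.1 and 26.4 CPM in NPCs, and its log2 change of -0.23 ± 0.12 did not pass (adjusted p = 0.0959, edgeR). Hist2h2aa2 had 25.3 and 21.7 CPM in neurons, against 36.0 and 24.5 CPM in NPCs, with a log2 change of -0.36 ± 0.13 (adjusted p = 0.0184, edgeR). In both genes the groups overlapped, with NPC replicate 2 among the neuron values and NPC replicate 1 above them. Without NPC replicate 1 the log2 changes were 0.05 and -0.06, neither past the threshold. Only 4.12% of the windows of Hist2h2aa1 and 0% of those of Hist2h2aa2 occurred in no other gene. The remaining tested Hist2 H2A gene, Hist2h2ac, had 0.266 and 0.398 CPM in neurons, against 1.00 and 0.769 CPM in NPCs, and fell by 1.39 ± 0.37 on the log2 scale.

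Hist3h2a ran the other way. It had 122 and 130 CPM in neurons, against 47.3 and 47.9 CPM in NPCs, a log2 change of 1.40 ± 0.06 (SE, adjusted p = 1.33e-12, edgeR). Both neuron libraries were above both NPC libraries, and this was the largest positive change among the members. All windows of its transcript, 100% of them, occurred in no other gene once genes that overlap its locus were set aside. Trim17, which overlaps it on the same strand, had 0.668 and 0.567 CPM in neurons, against 0.468 and 0.459 CPM in NPCs, and did not pass the test (log2 change 0.42 ± 0.36). Gm44313 overlaps it on the other strand, and whether strand was used in counting is not given in the sources used here.

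H2B genes of the Hist1 cluster were all lower in neurons but by less than their H2A counterparts. All 15 passed, with log2 changes between -1.52 and -0.67 and a median of -1.14, against -1.95 for the Hist1 H2A genes; the difference between the classes was not tested. Hist1h2bc had 25.2 and 23.6 CPM in neurons, against 42.8 and 40.1 CPM in NPCs, a log2 change of -0.76 ± 0.07 (adjusted p = 4.92e-08, edgeR). Hist2h2be had 8.16 and 7.17 CPM in neurons, against 14.5 and 15.02 CPM in NPCs, a log2 change of -0.95 ± 0.10 (adjusted p = 3.83e-07, edgeR). Their groups did not overlap. Hist1h2bq and Hist1h2br had the same counts in every library, 5.38 and 4.63 CPM in neurons against 14.8 and 14.0 CPM in NPCs, so these rows hold 1 measurement between them. Hist1h2bm, with 0.758 and 0.271 CPM in neurons, against 1.09 and 0.956 CPM in NPCs, lost its call with DESeq2, in the test against a 1.5-fold change, and without NPC replicate 1 or neuron replicate 2. Hist1h2ba, an H2B form known from testis, had 1.11 and 0.717 CPM in neurons, against 1.46 and 1.42 CPM in NPCs, and lost its call with DESeq2, in the same test against 1.5-fold, and without NPC replicate 1, NPC replicate 2 or neuron replicate 2. Its partner Hist1h2aa had no count in any library, where 3 counts would be 0.0614 and 0.0581 CPM in the neuron libraries and 0.0521 and 0.0503 CPM in the NPC libraries.

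Both Hist3 H2B rows were higher in neurons. Hist3h2ba had 131 and 128 CPM in neurons, against 61.2 and 57.7 CPM in NPCs, a log2 change of 1.13 ± 0.06 (SE, adjusted p = 1.58e-11, edgeR). Hist3h2bb-ps, an annotated pseudogene, had 1.64 and 1.45 CPM in neurons, against 0.653 and 0.752 CPM in NPCs, with a log2 change of 1.12 ± 0.27 (adjusted p = 0.00147, edgeR). Neither overlapped between groups. Of their windows, 95.5% and 93.7% occurred in no other gene, and the windows that Hist3h2ba shared were shared with Hist3h2bb-ps.

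**Figure D2:**
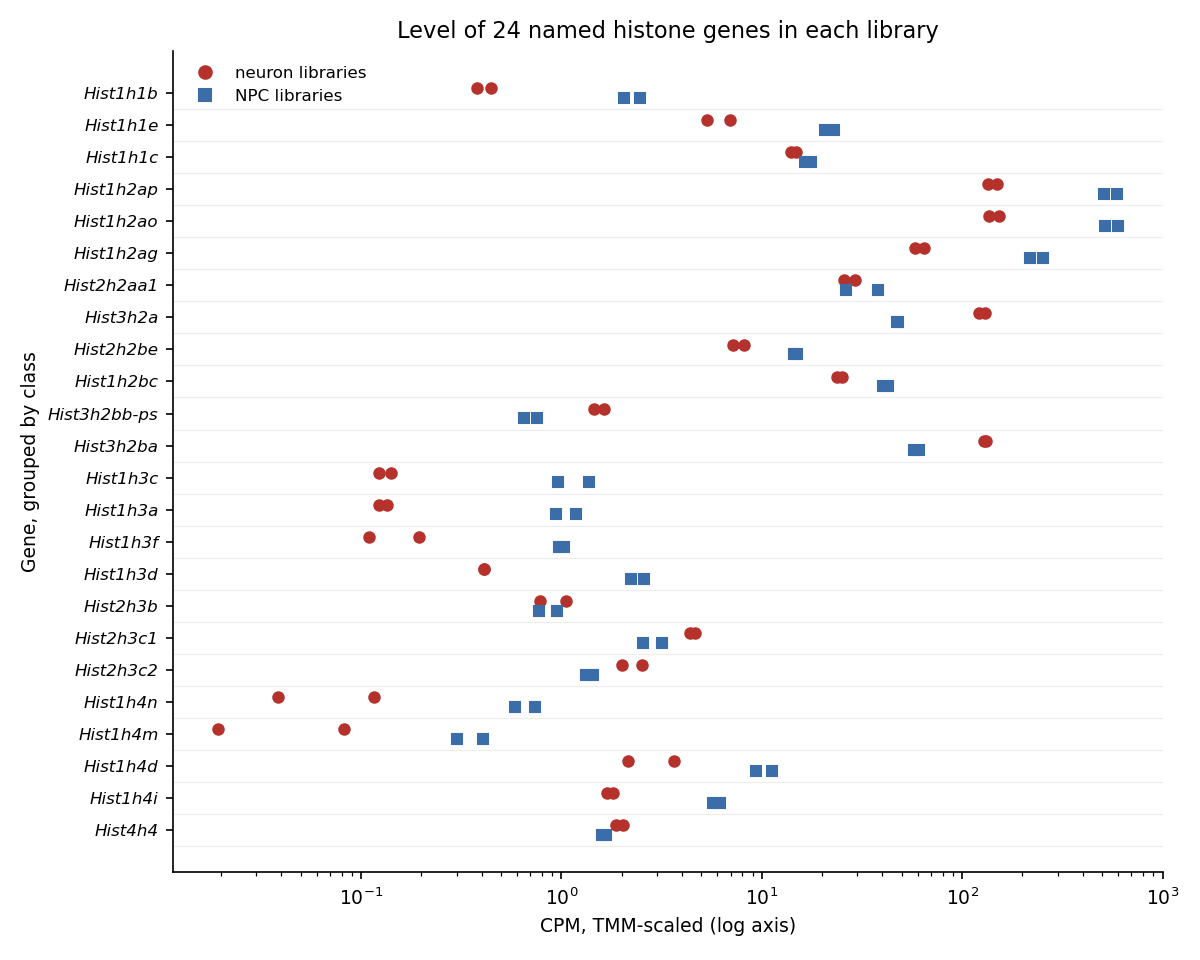
CPM (log axis) of the named genes in each library, with circles for the neuron libraries drawn above squares for the NPC libraries. Hist3h2a and Hist3h2ba lie near 130 CPM in neurons (122 to 131) and between 47.3 and 61.2 CPM in NPCs, while Hist1 genes lie to the left in neurons.

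H3 and H4 form the tetramer at the centre of the nucleosome. The Hist1 H3 genes had the most negative median change among the Hist1 classes: all 9 were lower in neurons, with log2 changes between -3.15 and -2.08 and a median of -2.35. Their levels were low. Hist1h3c had 0.123 and 0.141 CPM in neurons, against 1.37 and 0.966 CPM in NPCs, a log2 change of -3.15 ± 0.42 (SE, adjusted p = 4.44e-06, edgeR). Hist1h3a had 0.123 and 0.136 CPM in neurons, against 1.18 and 0.938 CPM in NPCs, with a log2 change of -3.01 ± 0.42. Hist1h3f had 0.109 and 0.194 CPM in neurons, against 0.970 and 1.03 CPM in NPCs, with a log2 change of -2.74 ± 0.42. In these 3 genes the neuron values rest on few reads and lie well below the NPC values. These genes passed the read filter only through the NPC libraries, so their direction was partly set by the filter. No Hist1 H3 gene exceeded 0.489 CPM in neuron replicate 1 or 0.412 CPM in neuron replicate 2. The filter may therefore bear on the count of 9 and on the class median too. Hist1h3d, which had 0.412 CPM in both neuron libraries, against 2.58 and 2.22 CPM in NPCs, fell by 2.54 ± 0.27 on the log2 scale (adjusted p = 2.99e-07, edgeR).

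No Hist2 H3 gene was called lower in neurons. Hist2h3c1 had 4.38 and 4.65 CPM in neurons, against 2.55 and 3.17 CPM in NPCs, a log2 change of 0.66 ± 0.16 (SE, adjusted p = 0.00162, edgeR). Hist2h3c2 had 2.00 and 2.53 CPM in neurons, against 1.32 and 1.44 CPM in NPCs, a log2 change of 0.71 ± 0.22 (adjusted p = 0.00788, edgeR). Both genes had higher values in both neuron libraries. Hist2h3b, next to them in symbol and class, had 0.779 and 1.05 CPM in neurons, against 0.776 and 0.956 CPM in NPCs, with overlapping groups and no call (log2 change 0.07 ± 0.30, adjusted p = 0.838, edgeR). Without neuron replicate 2 the call on Hist2h3c2 was lost (log2 change 0.55, adjusted p = 0.0734), and 67.2% and 38.5% of the windows of Hist2h3c1 and Hist2h3c2 occurred in no other gene. Per kilobase of coding sequence, Hist2h3c1 averaged 8.31 CPM in neurons and 5.26 in NPCs. The median Hist1 H3 gene had 0.379 in neurons and 2.66 in NPCs. For Hist2h3c1 this scale used 543 coding bases, while its longest annotated transcript has 1825, so the levels are not matched for transcript length.

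All 10 tested H4 genes of the Hist1 cluster were lower in neurons, with log2 changes between -3.03 and -1.04 and a median of -1.34. Hist1h4d had 2.16 and 3.63 CPM in neurons, against 11.3 and 9.38 CPM in NPCs, a log2 change of -1.82 ± 0.18 (SE, adjusted p = 8.85e-08, edgeR). Hist1h4i had 1.82 and 1.68 CPM in neurons, against 5.69 and 6.18 CPM in NPCs, with a log2 change of -1.76 ± 0.16. These were the H4 genes with the highest levels, and their groups did not overlap. Hist1h4n had 0.117 and 0.0387 CPM in neurons, against 0.738 and 0.585 CPM in NPCs, with a log2 change of -3.03 ± 0.54. Hist1h4m had 0.0819 and 0.0194 CPM in neurons, against 0.408 and 0.302 CPM in NPCs, with a log2 change of -2.79 ± 0.67. Without NPC replicate 1, 6 of the 10 lost their call (Hist1h4a, Hist1h4b, Hist1h4c, Hist1h4h, Hist1h4j and Hist1h4k), all of them under 1 CPM in every library, and 5 of these 6, all but Hist1h4c, also lost it with DESeq2. In Hist1h4m and Hist1h4n the neuron values rest on very few reads, which the wide SE reflects. Both genes passed the read filter only through the NPC libraries, so their direction was partly set by the filter. Hist4h4, the lone Hist4 gene, had 2.02 and 1.88 CPM in neurons, against 1.67 and 1.59 CPM in NPCs, so the neuron libraries were above the NPC libraries but the difference did not pass (log2 change 0.26 ± 0.21, adjusted p = 0.276, edgeR).

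The remaining untested members had very few reads: Hist2h2bb, Hist2h4 and Hist1h4f were at or below 0.24 CPM in every library, and Hist2h2ab had no count in neurons and 1 and 2 counts in NPCs. No difference in these genes was detectable at this depth.

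The make-up of the summed histone signal differed between the groups. Summed over the Hist1 rows, the level was 738 and 687 CPM in neurons, against 2809 and 2453 CPM in NPCs. Summed over the Hist3 rows, it was 255 and 259 CPM in neurons, against 109 and 106 CPM in NPCs. Hist2 rows summed to 70.1 and 63.2 CPM in neurons, against 94.5 and 72.4 CPM in NPCs, so NPC replicate 2 lay just above the neuron libraries. Hist3 took 23.9% and 25.6% of member counts in neurons, against 3.62% and 4.04% in NPCs, and Hist1 took 69.3% and 67.9% in neurons, against 93.2% in both NPC libraries. Reads assigned to several copies may be counted more than once in these sums.

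**Figure D3:**
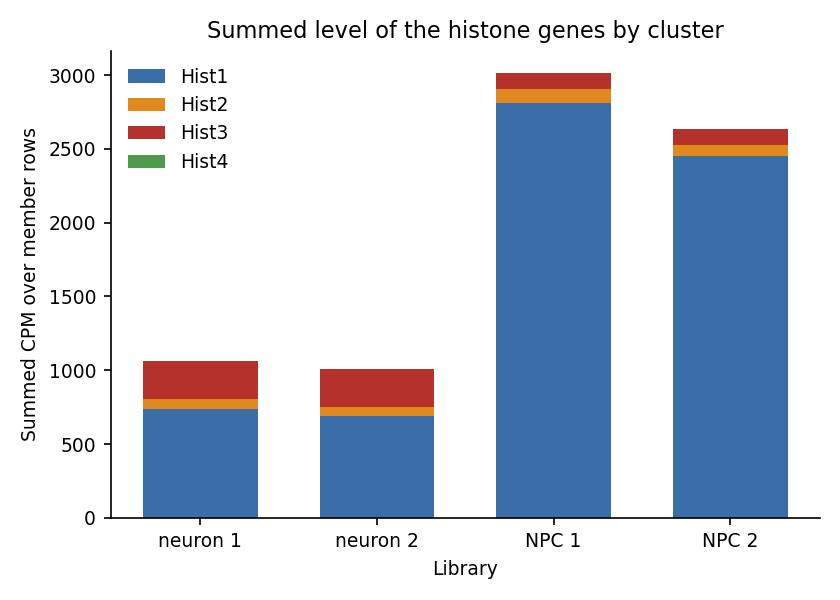
Summed CPM of the member rows in each library, with bars that start at 0 and are stacked by cluster. Hist1 rows sum to 687 and 738 CPM in the neuron libraries, against 2453 and 2809 CPM in the NPC libraries, the Hist3 share is larger in neurons, and Hist4, at 2.02 CPM or less, is too small to see.

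Per kilobase of coding sequence, the median H2A row stood far above the medians of the other Hist1 classes. This scale leaves out untranslated sequence, so it does not fully match levels between genes. Hist1h2ac, for example, has 390 coding bases in a transcript of 2482, and Hist1h2ak has 390 in one of 393. The median Hist1 H2A row had 103 CPM per coding kilobase in neurons and 385 in NPCs. The median Hist1 H2B row had 3.06 in neurons and 7.34 in NPCs, and the median Hist1 H4 row 0.87 in neurons and 2.04 in NPCs. For Hist1 H1 rows the medians were 0.78 and 3.38, and for Hist1 H3 rows 0.379 and 2.66. Single rows overlapped between classes. The lowest Hist1 H2A value was 17.2 in neurons and 63.7 in NPCs, and the highest Hist1 H2B value was 64.6 in neurons and 109.7 in NPCs. Reads shared between copies bear on these levels, and their part in the difference between classes was not tested.

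H2A and H2B genes often lie head to head, so that neighbours a short distance apart share the sequence between them. There were 13 pairs of neighbouring H2A and H2B genes with under 300 bases between them, and both members were tested in 12. The pairs were taken by distance alone, without a check of strand. In 11 of the 12 the log2 change of the H2A gene was more negative than that of its H2B neighbour. The pair Hist1h2ac and Hist1h2bc, 239 bases apart, had log2 changes of -2.13 and -0.76. The H2A gene's level per coding kilobase was 1.74 times that of its neighbour in neurons and 4.48 times in NPCs. The annotated transcripts of Hist1h2ac and Hist1h2bc have 2482 and 1156 bases, so these ratios do not settle which gene had more transcripts. The pair Hist2h2ac and Hist2h2be had log2 changes of -1.39 and -0.95. The exception was Hist3h2a with Hist3h2bb-ps, 172 bases apart, which were both higher in neurons. As H2A rows share reads among themselves, the pairs are not independent of each other. The pairs of Hist1h2bq and Hist1h2br also rest on the same H2B counts.

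**Figure D4:**
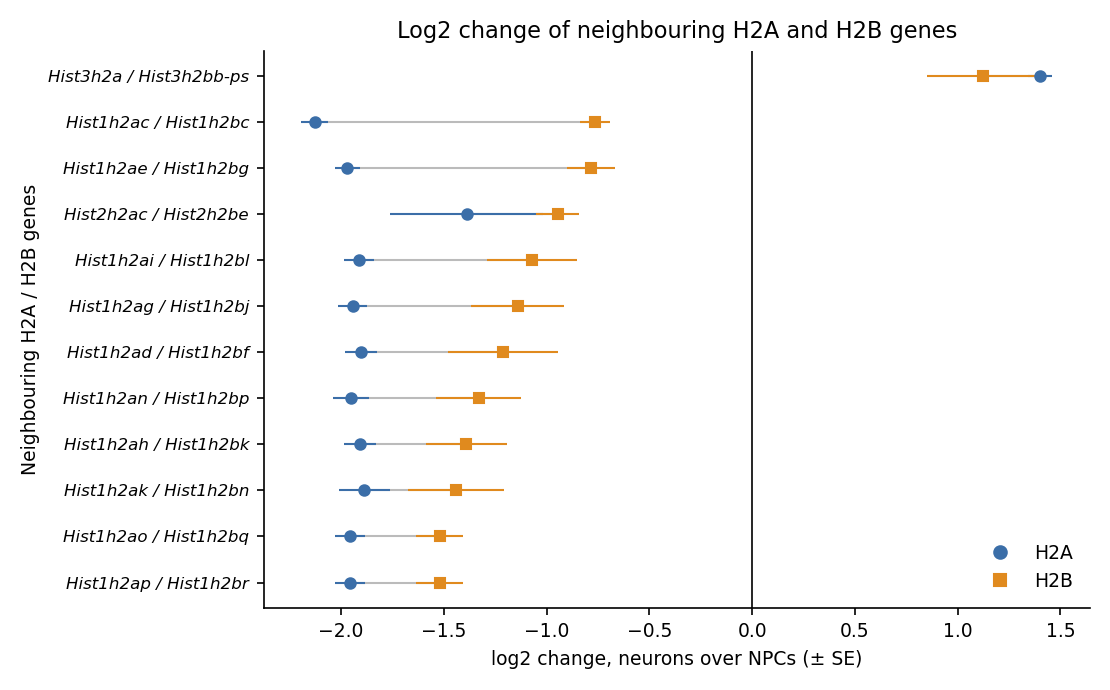
Log2 change (neurons over NPCs, with SE bars) of H2A genes (circles) and H2B genes (squares) that lie less than 300 bases apart, one pair per row. The H2A circle lies left of the H2B square in 11 of the 12 pairs with both genes tested.

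Rows with mostly their own sequence and rows that share most of it were both mainly lower in neurons. Among the 44 members with at least 50% of windows found in no other gene, 38 were tested, of which 33 were lower and 4 higher in neurons, with a median log2 change of -1.29. Among the 24 with less than 50%, all of which were tested, 21 were lower and 1 was higher, with a median of -1.90. The 3 Hist3 genes and Hist2h3c1 were the higher genes of the first group. Hist1h4d and Hist1h2ac, with 100% and 92.4% of such windows, were lower. Most of the annotated Hist1h2ac transcript, 2010 of 2482 bases, lies beyond its stem-loop.

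**Figure D5:**
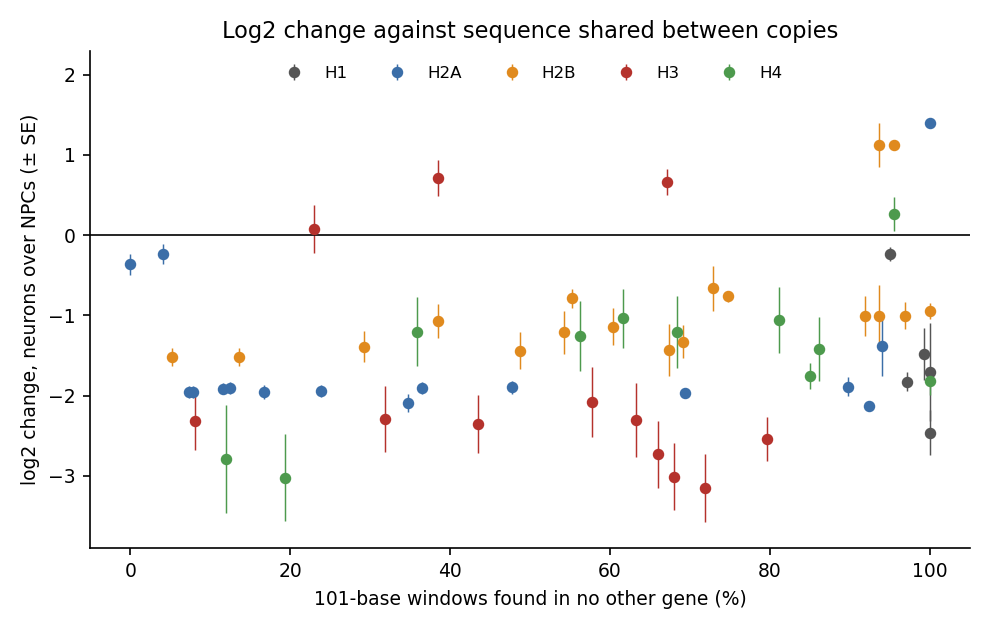
Log2 change (neurons over NPCs, with SE bars) against the percentage of a gene's read-length windows found in no other gene. Rows below 0 lie along the whole horizontal axis, and the 3 Hist3 genes lie at 93.7% or more.

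The annotated 3′ part of the transcript went with little difference in the Hist1 genes. With at least 100 bases annotated beyond the stem-loop, all 15 tested Hist1 genes were lower in neurons, with a median log2 change of -1.76. With fewer bases all 18 were lower, with a median of -1.90, and with no stem-loop letters all 18 were lower, with a median of -1.80. Over all clusters, the 4 genes that were higher and held the stem-loop letters had at least 100 bases annotated after it, among 20 tested genes of that kind. These are annotations, and which 3′ ends the cells used was not measured.

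Genes that make, process and degrade histone mRNA were mixed. Of 47 listed genes, all tested, 22 were lower in neurons, 8 were higher and 17 did not pass, with a median log2 change of -0.09. Over all genes tested, 36.9% were lower and 35.8% higher. Among 11 genes of the promoter and histone locus body, 8 were lower and none higher; Cdk2, a kinase of the entry into S phase, had 15.2 and 13.5 CPM in neurons, against 66.9 and 66.8 CPM in NPCs (log2 change -2.22 ± 0.07), and Ccna2, its cyclin partner, had a log2 change of -1.85 ± 0.05. Npat, the coactivator of histone genes in these bodies, fell by 0.29 ± 0.06 on the log2 scale. Slbp had 99.2 and 95.1 CPM in neurons, against 196 and 195 CPM in NPCs, a log2 change of -1.01 ± 0.05, whereas Lsm11, a subunit of the U7 particle, had 36.8 and 35.8 CPM in neurons, against 15.3 and 16.1 CPM in NPCs, a log2 change of 1.21 ± 0.07. Lsm10, its partner subunit, had a log2 change of 0.54 ± 0.09. Of the list, Srsf3 had the highest level and a log2 change of -0.20 ± 0.05. The other genes that were higher were the cleavage factor gene Cstf3, the export receptor gene Nxf1, and the decay genes Smg1, Lsm1, Zcchc11 and Zcchc6, of which Lsm1 had a log2 change of 0.47 ± 0.06 and Zcchc11 one of 0.12 ± 0.05. Of the 12 decay genes, 4 were higher and 5 lower, which is near the shares of 35.8% and 36.9% over all genes tested.

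Histone chaperones carry histones to DNA. Of 41 measured chaperone and deposition genes, 24 were lower in neurons and 8 higher, with a median log2 change of -0.32. The shares over all genes tested were 36.9% lower and 35.8% higher. Those that assemble H3 and H4 with replication were lower in 11 of 13 cases, such as Asf1b (log2 change -1.997 ± 0.11), Mms22l (-1.93 ± 0.07), Mcm2 (-1.92 ± 0.07) and Nasp (-0.88 ± 0.05). Npm1, the gene with the highest level on the list, had a log2 change of -0.36 ± 0.05. In the nucleosome assembly protein family, 3 genes were higher, namely Nap1l2 (log2 change 2.55 ± 0.09), Nap1l5 (1.97 ± 0.06) and Nap1l3 (1.74 ± 0.10). Smaller rises were found in Atrx (0.43 ± 0.05), Daxx (0.28 ± 0.06) and Hira (0.21 ± 0.07), which deposit the replacement H3 variant, and in Znhit1 (0.50 ± 0.08) and Supt6h. Srcap is not analysed here.

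Histone variant genes outside the replication clusters changed in both directions. Of 16 listed genes, 12 were tested, and 7 were lower, 4 higher and 1 without a call. Over all genes tested, 36.9% were lower and 35.8% higher, so the count of higher genes is near the general share. H3f3b, one of a pair of genes for the replacement H3 variant, had 3958 and 3338 CPM in neurons, against 2821 and 2824 CPM in NPCs, a log2 change of 0.37 ± 0.07. H3f3a had a log2 change of 0.35 ± 0.06, H2afj one of 0.35 ± 0.07 and H2afy2 one of 0.41 ± 0.06. H2afz had 989.6 and 881 CPM in neurons, against 1996 and 1942 CPM in NPCs, a log2 change of -1.07 ± 0.06. H2afx, which marks DNA damage when phosphorylated, had a log2 change of -1.09 ± 0.06, and Cenpa, the centromeric H3 variant, one of -2.33 ± 0.06. The replacement linker histone H1f0 had a log2 change of -0.75 ± 0.07.

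Genes listed for DNA replication, with the marker Mki67 among them, were lower in neurons as a list. In that direction 38 of 39 passed, against 36.9% of all genes tested, with a median log2 change of -1.50. Mcm3, a subunit of the replicative helicase, had 33.7 and 33.2 CPM in neurons, against 174 and 182 CPM in NPCs, a log2 change of -2.41 ± 0.06. Mki67, a marker of cycling cells, had a log2 change of -2.35 ± 0.06 and Top2a, which untangles DNA, one of -1.90 ± 0.06. Orc6 did not pass (log2 change 0.03 ± 0.06). Asf1b, Mms22l, Mcm2, Nasp, Slbp, Npat, H2afz and H1f0 were named after their values were seen.

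Markers of most other cell types listed also differed between the sorted groups. Over all genes tested, 72.6% differed in either direction, with 36.9% lower and 35.8% higher. Neuron markers were higher in neurons in 10 of 11 cases and summed to 12093 and 12243 CPM in neurons, against 3156 and 3189 CPM in NPCs. Radial glia markers were lower in 8 of 8 cases and summed to 588 and 610 CPM in neurons, against 2947 and 2922 CPM in NPCs, and intermediate progenitor markers were lower in 6 of 6. Endothelial markers (7 of 7 lower) summed to 6.51 and 6.85 CPM in neurons, against 191 and 196 CPM in NPCs, and pericyte markers (4 of 4 lower) to 5.56 and 5.47 CPM in neurons, against 142 and 147 CPM in NPCs. Oligodendrocyte precursor markers (5 of 5 lower) summed to 2.85 and 3.57 CPM in neurons, against 170 and 178 CPM in NPCs. Microglia markers (6 of 6 lower) summed to 17.8 and 17.4 CPM in neurons, against 38.1 and 37.5 CPM in NPCs. Erythroid markers (4 of 4 measured lower) summed to 159 and 156 CPM in neurons, against 1153 and 949 CPM in NPCs, so that NPC replicate 1 was higher both in these and in the summed Hist1 level. Interneuron markers, with 2 of 5 higher, 2 lower and 1 without a call, summed to 164 and 177 CPM in neurons, against 174 and 170 CPM in NPCs, with overlapping groups. No measured marker was at 0 in any library. The part of these cells in the histone results was not tested.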

How the data were processed

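RNA-seq of sorted cells, 2 neuron and 2 NPC libraries. The authors deposited a table of estimated counts per gene, whose values step in a fixed fraction of a read; the submitters' processing notes name CASAVA 1.9, TopHat 1.2.0, SAMtools 0.1.18 and the mouse build mm9 without their roles. For the counting tool, the annotation, strand and multi-mapping reads, nothing is given in the sources used here. Counts were rounded to whole numbers, filtered with filterByExpr, scaled by TMM and tested with edgeR 4.0.16 (glmQLFit, glmQLFTest; R 4.3.3) over all genes, calling adjusted p-values (Benjamini-Hochberg) under 0.05, and the SE was taken as the size of the log2 change over the root of F. The residual degrees of freedom were 2 and the biological coefficient of variation was 4.89%. On simulated counts the test recovered 45 of 50 genes changed 2-fold and 26 of 50 changed 1.25-fold, with 6 false calls among 162. The simulation changed few of its 15069 genes, as many up as down, with spread taken from these libraries. In the data 72.6% of genes were called, so these rates need not hold for the real comparison. DESeq2 1.42.0 and limma 3.58.1 were alternatives. The members, lists and rules were chosen with earlier results of these data known. The genes named were the 3 with the highest level per class, the 5 most positive and 5 most negative changes, all higher or uncalled members, and those of Hist3 and Hist4. Same-numbered libraries were not paired by the labels, and their deviations correlated at 0.03. Chromosomes, transcripts and promoters come from GENCODE vM21 and RefSeq GRCm38.p6, not mm9, and no coordinate of the counted table was used. For each list, the genes with the smallest p and the highest level and those called against the list's median were named; 1 of them is not reported here.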

Additional observations from a re-analysis of the deposited data

How the results depend on the processing

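Of the 62 tested members, 47 kept their call and direction under every alternative that tested them, and 15 did not. DESeq2 called 44 members lower and 5 higher. Testing against a 1.5-fold change gave 5387 for all genes called in place of 11108, 3 members higher, and 15 chaperone, 12 biogenesis and 6 variant genes; a filter of 5 CPM, which leaves 25 members to test, gave 22 lower, 2 higher and 11 of the named genes. Hist2h3b, which has no call, had log2 changes of -0.13 with library size only, -0.028 with upper-quartile factors, and between -0.15 and 0.28 when a library was left out, and Hist2h2aa1 had between -0.47 and 0.054; the cause was not tested. Leaving out a library gave between 43 and 54 members lower and 4 to 5 higher, 9773 to 11252 genes called, 25 to 33 biogenesis, 27 to 35 chaperone, 11 variant, 37 to 39 replication and 20 to 22 named genes; without NPC replicate 1, 11 calls were lost, of Hist1h1a, Hist1h1c, Hist1h2ba, Hist1h2bm, Hist2h2aa2 and 6 Hist1 H4 genes. With the replicate block, 55 members were lower and 5 higher, with 11206 genes called, and Hist2h2aa1 passed, as it did with library size only, with upper-quartile factors and without NPC replicate 2 or neuron replicate 1; the crossed pairing, added after seeing the data, gave 54, 5 and 10919. Library size alone moved the median of all genes to -0.23 and upper-quartile factors to -0.12. Low counts limit the H3 and H4 genes, whose SE reached 0.67.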
